A study of Mus musculus with 99 samples.

Results

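The Notch ligand genes Dll1, Dll3, Dll4, Jag1 and Jag2 and the Hes and Hey target genes Hes1, Hes5, Hey1, Hey2 and Heyl were followed in mouse embryonic stem cells (ESCs) with and without Polycomb activity. These 10 genes, chosen by name from the pathway, were among 55341 gene names in the RNA-seq count table, and all 10 were found there. They were also searched in every ChIP-seq peak list, counting a peak that overlapped the gene widened by 2.5 kb on each side. RING1B is the catalytic subunit that places ubiquitin on a lysine of histone H2A (H2AK119ub1) within Polycomb repressive complex 1 (PRC1), and EED is a core subunit of PRC2, which methylates a lysine of histone H3 (H3K27me3). The Parental ESCs were ROSA26::creERT2 RING1A-/-;RING1B fl/fl, so they carried no RING1A in any condition and lost RING1B when tamoxifen (OHT) activated the Cre recombinase. RING1B WT and RING1B I53S cells were clones of the Parental line that stably expressed FLAG-HA-tagged wild-type RING1B or the catalytically inactive I53S form from a pCAG vector. The untreated controls of all 3 therefore also lacked RING1A. Eed fl/fl ESCs, derived separately from blastocysts, lost EED with OHT, and the study lists 2 clones of them without the labels saying which gave a library. All cells grew with serum, LIF and the 2 inhibitors of the 2i medium and received 0.5 µM OHT (+OHT) or ethanol (−OHT) for 72 h, and some MTF2 and JARID2 ChIP samples received OHT for 48 h. Knockout (KO) derivatives of the 3 lines without MTF2, an accessory subunit of PRC2, were clones as well. Each line and treatment had 2 RNA-seq libraries, 16 in all, and ChIP-seq gave 70 peak lists for 12 antibodies and 4 lists for inputs.

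In Notch signaling, Delta-like and Jagged ligands on a cell bind Notch receptors on its neighbor, and proteolysis releases the intracellular part of the receptor. That part enters the nucleus, joins the DNA-binding protein RBPJ and a Mastermind coactivator, and activates targets that include Hes and Hey genes, which encode basic helix-loop-helix repressors. The pathway takes part in fate choices of differentiating cells, as in neural progenitors, somites and vessels, and many of its regulatory genes have CpG-rich promoters of the kind that Polycomb complexes occupy in ESCs.

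Among the members, Dll4 and Hes5 stood near zero without OHT and had strong Polycomb peaks, Hey2 had the same low level with intermediate peaks, and Jag1 was well transcribed, so the 250 bases before their annotated starts are shown, read on the strand of the gene from RefSeq on GRCm38.p6. Capitals mark the core letters of the RBPJ motif, TGGGAA or TTCCCA on the strand shown.
Dll4 (chr2:119325534-119325783, + strand): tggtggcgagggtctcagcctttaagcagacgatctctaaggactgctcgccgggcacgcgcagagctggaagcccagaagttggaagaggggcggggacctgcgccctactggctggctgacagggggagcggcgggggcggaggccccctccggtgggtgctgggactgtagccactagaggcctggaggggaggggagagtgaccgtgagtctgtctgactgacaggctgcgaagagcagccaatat
Hes5 (chr4:154960673-154960922, + strand): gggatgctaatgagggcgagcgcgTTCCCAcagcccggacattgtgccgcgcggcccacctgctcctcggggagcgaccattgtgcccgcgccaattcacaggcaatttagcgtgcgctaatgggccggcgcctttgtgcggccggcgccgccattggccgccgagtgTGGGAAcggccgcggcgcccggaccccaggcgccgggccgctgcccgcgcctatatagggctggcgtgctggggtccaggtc
Hey2 (chr10:30842784-30843033, − strand): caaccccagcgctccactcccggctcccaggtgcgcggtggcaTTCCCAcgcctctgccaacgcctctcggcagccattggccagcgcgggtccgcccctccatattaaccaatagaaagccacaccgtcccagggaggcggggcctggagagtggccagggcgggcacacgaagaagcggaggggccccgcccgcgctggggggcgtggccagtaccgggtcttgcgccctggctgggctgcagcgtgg
Jag1 (chr2:137116521-137116770, − strand): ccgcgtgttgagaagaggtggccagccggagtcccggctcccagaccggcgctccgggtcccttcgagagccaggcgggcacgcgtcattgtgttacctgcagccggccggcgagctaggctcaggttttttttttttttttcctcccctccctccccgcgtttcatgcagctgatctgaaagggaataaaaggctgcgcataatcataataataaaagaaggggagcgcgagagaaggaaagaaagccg
RefSeq promoters were matched for 7 of the 10 members, 8 promoters in all, without Hes1, Hey1 and Heyl. The core letters occurred 2 times in the Hes5 promoter and 1 time in the Hey2 promoter, and in 2 of the 8 member promoters against 21.6% of 32817 promoters of the same length, so their share was near the general one. CG pairs numbered 14 in the Dll4, 32 in the Hes5, 22 in the Hey2 and 20 in the Jag1 window, and between 10 and 54 over the 8 promoters, against a median of 6 over all promoters.

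RNA depth was 8140106 to 12743460 counted reads in the 12 libraries of the 3 lines without RING1A and 6957248 to 9443814 in the 4 Eed fl/fl libraries. Levels are CPM, counts scaled to a common library size with TMM factors, and comparisons between genes use CPM per kb of exon. The sources do not say that the libraries of a group came from separate cultures, so p-values measure the spread between these libraries, which may be technical. Rnf2, the gene of RING1B, was at 198 and 257 CPM without and 144 and 167 CPM with OHT in Parental cells, a count over all exons that does not isolate the deleted part and that includes the transgene in the other lines. Ring1, the gene of RING1A, gave 1.0 to 4.0 CPM in the 12 libraries. Eed was at 255 and 173 CPM without and 67.1 and 43.7 CPM with OHT in Eed fl/fl cells.

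Without OHT, the members fell into a transcribed and a nearly silent group. In Parental −OHT cells the mean level per kb of exon was 10.7 CPM for Hes1, 5.31 for Jag1, 3.05 for Jag2, 2.1002 for Hey1, 1.31 for Dll3 and 0.506 for Dll1. The libraries of neighboring genes in this order did not overlap. Hes5, Heyl, Hey2 and Dll4 followed with means of 0.0453, 0.0319, 0.0177 and 0 CPM per kb, and their libraries overlapped. With OHT the order became Hes1 at 14.9, Jag2 at 5.47, Dll3 at 4.03, Jag1 at 3.77, Hey1 at 3.54, Dll1 at 2.09, Hes5 at 1.45, Dll4 at 0.524, Heyl at 0.404 and Hey2 at 0.335 CPM per kb. Here the range of Jag1 held those of Dll3 and Hey1, the range of Hes5 held that of Dll1, and Dll4, Heyl and Hey2 overlapped in turn.

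**Figure D1:**
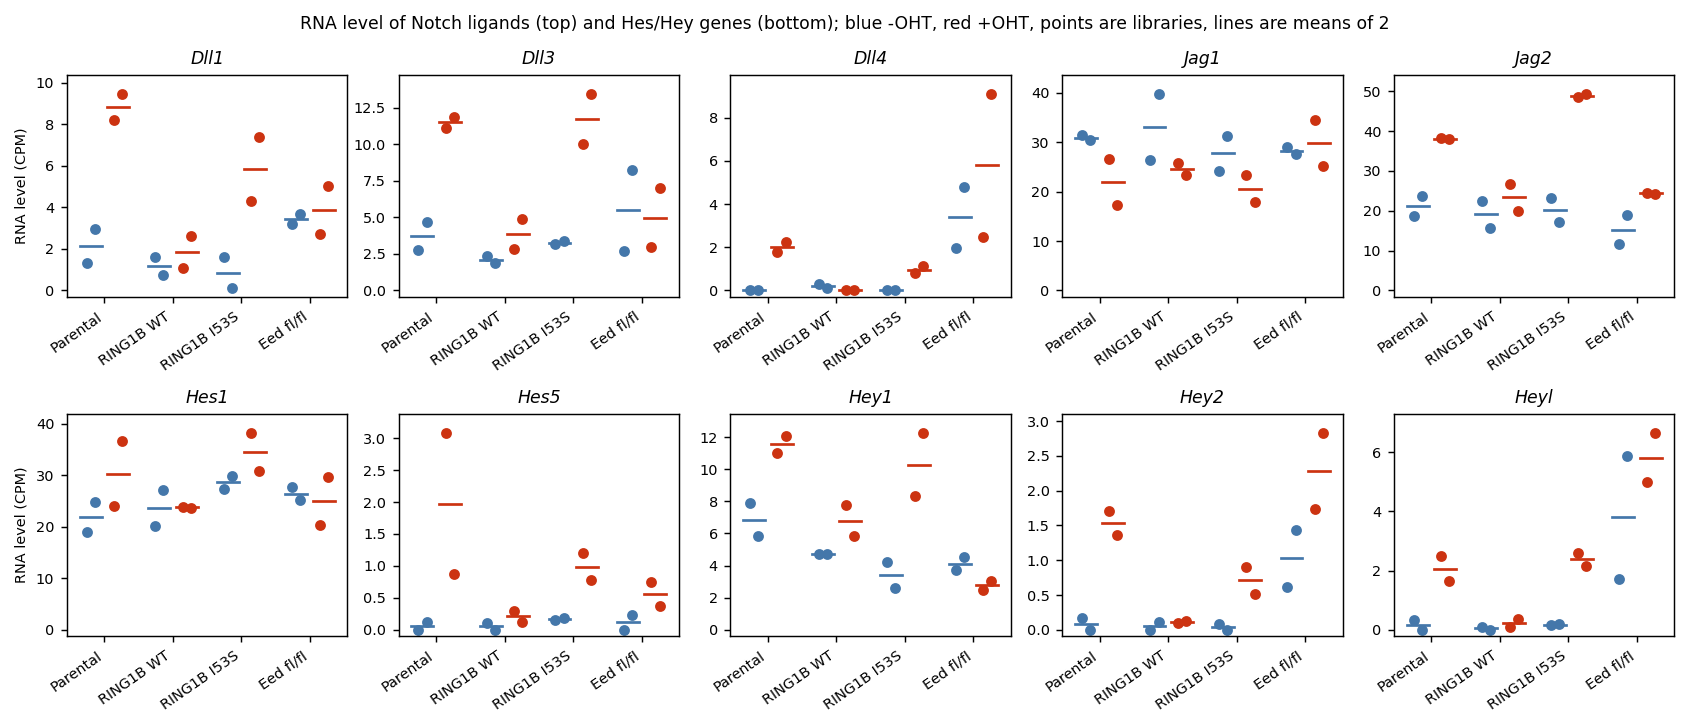
Level of each Notch ligand and Hes or Hey target in every RNA-seq library, in CPM, by line and treatment, with 1 point per library, blue for −OHT and red for +OHT, and a line at the mean of the 2 libraries of a group. In Parental and RING1B I53S cells both +OHT libraries stood above both −OHT libraries for all members but Jag1 and Hes1, whose Parental groups overlapped for Hes1 and ran lower for Jag1.

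With OHT, 3 of the 5 ligands and 3 of the 5 targets were called higher in each of the lines left without active RING1B, and Jag1, Jag2 and Hes1 were called in neither. In Parental cells 6 of the 10 members rose and 0 fell (FDR under 0.05 after Benjamini-Hochberg adjustment and a log2 fold change of 1.5 or more in either direction, edgeR quasi-likelihood test), the ligands Dll1, Dll3 and Dll4 and the targets Hes5, Hey2 and Heyl, where 15.1% of the 18154 genes tested rose and 1.83% fell. RING1B I53S cells with OHT also had 6 members higher and 0 lower, Dll1, Dll3, Dll4, Hey1, Hey2 and Heyl, against 12.8% of all genes higher and 1.04% lower. All 10 members passed the filter on low counts, but Dll4, Hes5, Hey2 and Heyl reached 1 CPM in 0 of the 6 −OHT libraries and passed through the +OHT libraries, so that they could enter the test only by being higher there. Among the other 6 members, 2 rose in Parental (Dll1 and Dll3) and 3 in RING1B I53S cells (Dll1, Dll3 and Hey1). The 3 targets called in Parental cells were thus all among the 4 genes that could enter only by being higher. The median log2 fold change of the other 6 members was 0.79 and 1.43, beside 0.03 and 0.01 over all genes tested. Over all 10 members, with Dll4 at its bound, the medians were 1.87 and 2.14, and these include the 4 genes that could enter only by being higher.

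Dll1 encodes a ligand that acts in somite formation and neurogenesis. Its level was 1.30 and 2.97 CPM in Parental −OHT and 8.20 and 9.46 CPM in Parental +OHT libraries, and 1.62 and 0.0959 CPM rose to 4.31 and 7.40 CPM in RING1B I53S cells. All 4 +OHT libraries of these lines lay above all 4 −OHT libraries, and the lowest value, in RING1B I53S −OHT replicate 2, rested on 1 read. The log2 fold change was 2.09 (SE 0.595, adjusted p = 0.00995, edgeR) in Parental and 2.68 (SE 0.645, adjusted p = 0.00408) in RING1B I53S cells. Each call depended on single libraries. The Parental call was lost without Parental −OHT replicate 1 (1.54, adjusted p = 0.104) and without +OHT replicate 2 (1.98, adjusted p = 0.0567), and the RING1B I53S call without −OHT replicate 2 (1.84, adjusted p = 0.0537). In RING1B WT cells Dll1 was at 1.60 and 0.768 CPM without and 1.11 and 2.62 CPM with OHT, and these ranges overlapped. The antisense gene A930024N18Rik, at 0 or 1 read in each of the 12 libraries, shares 867 of 4219 exon bases with Dll1.

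Dll3 encodes a Delta-like protein that limits Notch signaling within the cell that makes it and acts in somite segmentation. Parental libraries had 2.77 and 4.70 CPM without and 11.1 and 11.9 CPM with OHT, RING1B I53S libraries 3.17 and 3.36 CPM without and 10.03 and 13.4 CPM with OHT, and RING1B WT libraries 2.35 and 1.86 CPM without and 2.82 and 4.86 CPM with OHT. The +OHT libraries of the first 2 lines stood apart from every other library of the 12. Dll3 rose by a log2 fold change of 1.65 (SE 0.357, adjusted p = 0.00135, edgeR) in Parental and 1.85 (SE 0.355, adjusted p = 0.000671) in RING1B I53S cells. Without Parental −OHT replicate 1 the Parental change was 1.26 and under the fold threshold. In RING1B WT cells it was 0.84 (SE 0.405, adjusted p = 0.316).

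Dll4 encodes the ligand best known from sprouting vessels. It had 0 reads in all 4 −OHT libraries of Parental and RING1B I53S cells, 21 and 23 reads in Parental +OHT (1.79 and 2.24 CPM) and 8 and 13 reads in RING1B I53S +OHT (0.802 and 1.12 CPM). RING1B WT cells had 3 and 1 reads without and 0 and 0 reads with OHT. Reads thus appeared in both +OHT libraries of the lines without active RING1B and in neither of RING1B WT. Against a floor of 3 reads over a group, Dll4 was at least 13.6-fold higher in Parental (adjusted p = 0.000595, edgeR) and at least 7.58-fold higher in RING1B I53S cells (adjusted p = 0.00372). The antisense gene Gm14207 shares 214 of 3852 exon bases with Dll4, counting ignored strand, and Gm14207 itself had 4 and 0 reads in Parental −OHT and 32 and 19 in Parental +OHT, and its part in the Dll4 values was not tested.

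Jag1 and Jag2 encode the Jagged ligands, which carry a cysteine-rich region that Delta-like ligands lack. Jag1 had 31.5 and 30.4 CPM in Parental −OHT and 26.6 and 17.3 CPM in Parental +OHT libraries, 24.3 and 31.2 against 23.4 and 17.8 CPM in RING1B I53S, and 26.4 and 39.7 against 25.8 and 23.3 CPM in RING1B WT cells. Its +OHT libraries lay lower in each line, with log2 fold changes of −0.49 (SE 0.255, adjusted p = 0.145), −0.43 (SE 0.256, adjusted p = 0.233) and −0.43 (SE 0.256, adjusted p = 0.437, edgeR), none past the test. Jag2 had 18.7 and 23.7 CPM in Parental −OHT, 38.3 and 37.9 CPM in Parental +OHT, 23.2 and 17.1 CPM in RING1B I53S −OHT and 48.5 and 49.3 CPM in RING1B I53S +OHT libraries. These groups did not overlap, and the log2 fold changes of 0.85 (SE 0.237, adjusted p = 0.00885) and 1.28 (SE 0.237, adjusted p = 0.000488) passed the FDR but not the fold threshold. With the FDR alone Jag2 would count as higher and 7 members would be higher in each line, against 21.9% and 18.4% of all genes. In RING1B WT cells Jag2 had 22.6 and 15.8 CPM without and 26.8 and 20.1 CPM with OHT.

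Hes1, a repressor that oscillates in ESCs and progenitors, was the target with the highest level per kb. It had 18.9 and 24.7 CPM in Parental −OHT, 24.0 and 36.6 CPM in Parental +OHT, 27.3 and 29.9 CPM in RING1B I53S −OHT and 38.1 and 30.9 CPM in RING1B I53S +OHT libraries. The Parental groups overlapped and those of RING1B I53S were close, with log2 fold changes of 0.48 (SE 0.244, adjusted p = 0.141) and 0.27 (SE 0.240, adjusted p = 0.444, edgeR). RING1B WT cells stayed at 20.2 to 27.2 CPM over their 4 libraries.

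Hes5, a Notch target of neural progenitors, rested on few reads. Parental libraries had 0 and 1 reads without and 36 and 9 reads with OHT (3.07 and 0.877 CPM). RING1B I53S libraries had 2 and 2 reads without and 12 and 9 reads with OHT (1.204 and 0.775 CPM), and the 4 RING1B WT libraries had 0 to 3 reads. Every +OHT library of Parental and RING1B I53S cells was thus above all others, with 36 of the 45 Parental +OHT reads in replicate 1. The Parental ratio was 41.7 (95% binomial interval 7.11 to 1684, which, like the other such intervals here, covers counting error only), called at an adjusted p of 0.00198 (edgeR) and lost without Parental +OHT replicate 1 (adjusted p = 0.0724). In RING1B I53S cells the log2 fold change was 2.44 (SE 0.965) and did not pass (adjusted p = 0.0674), while with the replicate number as a block it passed (2.48, adjusted p = 0.0474) and 7 members were called there in place of 6. The antisense gene Gm20421 shares 433 of 1363 exon bases with Hes5.

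Hey1, Hey2 and Heyl encode the hairy-related repressors with a YRPW-type motif, of which Hey2 is known from heart and vessel development. Hey1 had 7.90 and 5.81 CPM in Parental −OHT, 11.02 and 12.1 CPM in Parental +OHT, 4.25 and 2.59 CPM in RING1B I53S −OHT and 8.33 and 12.2 CPM in RING1B I53S +OHT libraries. It rose in RING1B I53S cells (log2 fold change 1.57, SE 0.336, adjusted p = 0.00162, edgeR), though not without −OHT replicate 2 (1.27) or +OHT replicate 2 (1.25), when it fell under the fold threshold. In Parental cells the change was 0.74 (SE 0.321, adjusted p = 0.0807) with groups that did not overlap, and the difference between the 2 lines' changes was 0.83 (SE 0.463, adjusted p = 0.99996). Without OHT Hey1 in RING1B I53S compared with Parental cells did not pass (log2 fold change −0.999, adjusted p = 0.533). RING1B WT cells had 4.71 and 4.72 CPM without and 7.75 and 5.85 CPM with OHT.

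Hey2 had 2 and 0 reads in Parental −OHT and 20 and 14 reads in Parental +OHT libraries, 1 and 0 against 9 and 6 reads in RING1B I53S, and 0 or 1 read in each RING1B WT library. The ratio was 15.8 (95% binomial interval 4.04 to 135, adjusted p = 0.00568, edgeR) in Parental and 16.2 (2.499 to 684, adjusted p = 0.0264) in RING1B I53S cells. The Parental call was lost without −OHT replicate 2 (adjusted p = 0.0834) or +OHT replicate 1 (adjusted p = 0.0546), and that of RING1B I53S without −OHT replicate 1 (adjusted p = 0.0671), −OHT replicate 2 (adjusted p = 0.203) or +OHT replicate 1 (adjusted p = 0.119). Heyl had 4 and 0 reads in Parental −OHT and 29 and 17 reads in Parental +OHT libraries, 2 and 2 against 26 and 25 reads in RING1B I53S, and 0 to 3 reads in each RING1B WT library. It rose by a log2 fold change of 3.37 (SE 0.856, adjusted p = 0.00455, edgeR) in Parental and 3.70 (SE 0.844, adjusted p = 0.00271) in RING1B I53S cells. Its Parental call was lost without −OHT replicate 2 (adjusted p = 0.0621) or +OHT replicate 1 (adjusted p = 0.0536). Without the latter library 3 of the 10 members were higher in Parental cells, and without RING1B I53S −OHT replicate 2 there were 3 in RING1B I53S cells.

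**Figure D2:**
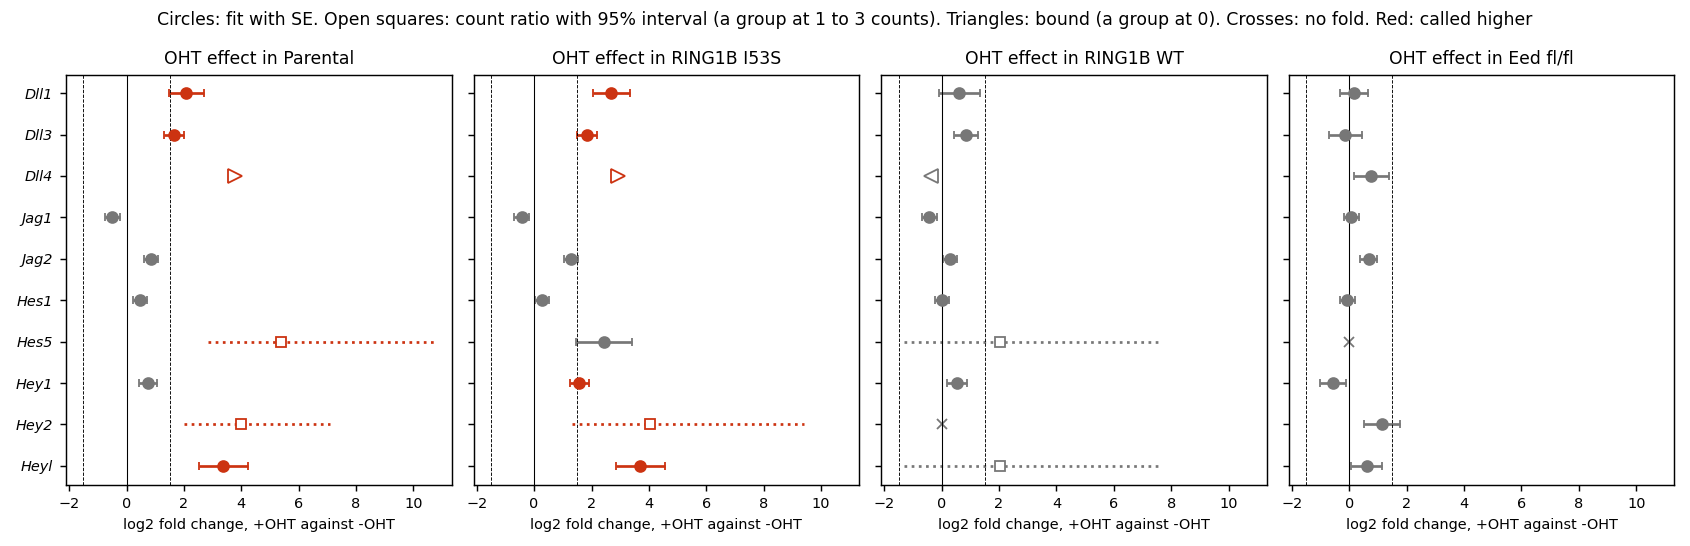
Change with OHT of each member in Parental, RING1B WT, RING1B I53S and Eed fl/fl cells, on a log2 axis: circles are edgeR fits with bars of 1 standard error, squares are ratios of summed reads with dotted 95% intervals where a group had 1 to 3 reads, triangles are bounds where a group had 0 reads, crosses have no fold, and dashed lines mark 1.5 in either direction. Dll1, Dll3, Dll4, Hey2 and Heyl were called higher (red) in both Parental and RING1B I53S cells, and 0 members were in RING1B WT and Eed fl/fl cells.

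In cells that expressed wild-type RING1B the members were not told apart from their untreated level. With OHT in RING1B WT cells 0 of 10 members passed in edgeR and 0 in DESeq2, 1 (Dll4) had an unadjusted p under 0.05, and 1.34% of all genes rose and 0.0386% fell. The median log2 fold change was 0.41 over the 6 members that reached 1 CPM without OHT, beside 0.02 over all genes. Between +OHT cells, 6 members were lower in RING1B WT than in Parental cells, where 7.62% of all genes were lower and 1.06% higher, and 4 of the 6 (Dll4, Hes5, Hey2 and Heyl) had entered the test only through +OHT libraries in which they were high, leaving 2 of the other 6 members called. Dll1 differed by −2.27 (adjusted p = 0.0137, edgeR), Dll3 by −1.59 (adjusted p = 0.00434) and Heyl by −3.13 (adjusted p = 0.0154) on the log2 scale. Dll4 was at least 11.99-fold lower (adjusted p = 0.00206), Hes5 had 4 reads against 45 (log2 fold change −3.11, adjusted p = 0.0233), and Hey2 was 13.9-fold lower by reads (95% binomial interval 3.56 to 119.4, adjusted p = 0.0165). Without RING1B WT +OHT replicate 1 the count fell to 1 member, and without Parental +OHT replicate 1 it fell to 2 and without Parental +OHT replicate 2 to 3.

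With OHT, I53S- and WT-expressing cells differ in the catalytic activity of the protein they express. They are also separate clones of the Parental line, so activity and clone cannot be told apart in this comparison. Of the members, 3 were higher in RING1B I53S cells, Dll3 by 1.63 (adjusted p = 0.00536, edgeR), Dll4 by at least 5.83-fold (adjusted p = 0.0137) and Heyl by 3.33 (adjusted p = 0.0136) on the log2 scale, against 6.02% of all genes higher and 0.6% lower. Dll4 and Heyl again entered the test only through +OHT libraries, and 1 of the 6 members that did not, Dll3, was called. Jag2 differed by 1.06 (adjusted p = 0.00590) and stayed under the fold threshold. Dll1 (1.68, adjusted p = 0.0748), Hes5 (2.096, adjusted p = 0.162) and Hey2 (2.53, adjusted p = 0.134) did not pass. Without RING1B WT +OHT replicate 1 the count was 0, with adjusted p values of 0.110 for Dll3, 0.129 for Dll4 and 0.176 for Heyl. Leaving out RING1B WT +OHT replicate 2 lost Dll4 (adjusted p = 0.0913), leaving out RING1B I53S +OHT replicate 1 lost Heyl (adjusted p = 0.0540), and leaving out RING1B I53S +OHT replicate 2 put Dll3 under the fold threshold (1.39).

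RING1B I53S and Parental cells with OHT were not told apart at these genes. None of the 10 members passed, with 0 at an unadjusted p under 0.05 and 0 in DESeq2, and 0.0661% of all genes were higher and 0.0936% lower. The log2 differences ran from −1.12 (SE 0.745) for Hey2 to 0.36 (SE 0.231) for Jag2, and for the genes with few reads a difference near the threshold was not detectable at this depth. Both OHT effects and these contrasts use the same +OHT libraries. Dll4, which reached 1 CPM in 0 −OHT libraries, entered the tests of difference only through +OHT libraries in which it was high. Tested directly, the difference in OHT effect between RING1B WT and Parental cells passed for 1 member, Dll4 (adjusted p = 0.0237, against 1.1% of all genes lower and 0.435% higher), from 4 reads falling to 0 in RING1B WT and 0 rising to 44 in Parental cells, and leaving out any of 7 of the 8 libraries lost it (adjusted p 0.0540 to 0.245). Between RING1B I53S and RING1B WT cells it passed for 0 members, with 4 at an unadjusted p under 0.05, 0 in DESeq2, and 0.209% of all genes higher and 0.138% lower. Between RING1B I53S and Parental cells it passed for 0 members, with 0 at an unadjusted p under 0.05, 0 in DESeq2 and 0% of all genes. Without OHT, 0 members differed between any pair of these lines in edgeR or DESeq2, 1 in each pair had an unadjusted p under 0.05, and of all genes 0.0881% were higher and 0.0661% lower in RING1B I53S against Parental, 0.0496% and 0.011% in RING1B WT against Parental, and 0.011% and 0.0331% in RING1B I53S against RING1B WT cells.

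Of 42 other Notch pathway genes 41 were tested. With OHT, 9 (22%) were higher and 2 (4.88%) lower in Parental cells, beside 15.1% and 1.83% of all genes, 9 (22%) and 1 (2.44%) in RING1B I53S cells, beside 12.8% and 1.04%, and 1 (2.44%) and 0 in RING1B WT cells, beside 1.34% and 0.0386%. Their median log2 fold changes were 0.17, 0.24 and −0.01. The genes called higher include Dlk1, Dlk2, Hes2 and Hes7, which had means under 1 CPM in each −OHT group of these lines. They passed the filter through +OHT libraries, so they too could enter the test only by being higher there. Among the receptors, Notch4, which is known from endothelium, fell from 37.7 and 29.4 CPM to 4.36 and 5.56 CPM in Parental cells (log2 fold change −2.76, adjusted p = 4.69e-07, edgeR) and from 30.8 and 19.9 CPM to 6.42 and 5.25 CPM in RING1B I53S cells (−2.12, adjusted p = 1.27e-05). In RING1B WT cells Notch4 had 30.9 and 31.5 CPM without and 32.2 and 26.4 CPM with OHT. Notch1, Notch2 and Notch3 changed by 0.55, 0.78 and 0.53 in Parental and 0.62, 0.50 and 0.74 in RING1B I53S cells, all under the fold threshold.

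The DNA-binding partner Rbpj changed by 0.27 (adjusted p = 0.276, edgeR) in Parental and 0.24 (adjusted p = 0.362) in RING1B I53S cells. The coactivator gene Maml3 rose in both lines, by 2.89 and 1.68, as did Aph1b, a gamma-secretase subunit, by 2.63 and 1.57, Lfng, a glycosyltransferase that modifies receptors and ligands, by 2.81 and 2.25, and Neurl1b, which takes part in ligand endocytosis, by 2.27 and 2.57. Dlk1, an atypical ligand, went from 0.244 and 0.865 CPM to 15.97 and 23.1 CPM in Parental cells (log2 fold change 5.24, adjusted p = 1.16e-07) and rose by 5.36 in RING1B I53S cells, and it was the single pathway gene higher in RING1B WT cells with OHT (2.79, adjusted p = 0.00739). Dlk2, its paralog, rose by 2.59 and 4.30, and the further Hes genes Hes2 and Hes7 rose by 3.45 and 2.62 in Parental and by 2.98 and 2.39 in RING1B I53S cells. Dtx4 (2.1003) was called higher and Poglut1 (−1.97), which adds glucose to receptors, lower in Parental cells, and Dner (1.88), an atypical ligand, higher in RING1B I53S cells.

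Genes that mark other cell types moved in the same libraries. The summed level of 7 pluripotency markers was 3309 to 3991 CPM in Parental −OHT and 1573 to 1674 CPM in Parental +OHT libraries, with 2 of 7 called lower. That of 6 primitive endoderm markers was 3.09 to 3.504 and 43.7 to 46.0 CPM, with 6 of 6 called higher and Gata6 and Foxa2 at 0 without OHT. Gata6, Foxa2, Sox17 and the trophoblast marker Cdx2 had means under 1 CPM in each −OHT group of the 3 lines. They could enter the test only by being higher with OHT. The sums were 6.68 to 9.04 and 39.9 to 43.9 CPM for 4 neural progenitor markers (3 of the 3 tested higher), 1.98 to 2.04 and 7.60 to 8.80 CPM for 3 mesoderm markers (2 higher), 165 to 196 and 416 to 423 CPM for 7 trophoblast markers (4 of the 6 tested higher) and 11.9 to 14.02 and 45.7 to 48.4 CPM for 5 fibroblast markers (2 of the 3 tested higher, Lum at 0 and Postn at 0 without OHT). In RING1B I53S cells the primitive endoderm sum went from 4.605 to 4.71 CPM to 36.4 to 38.2 CPM and the neural sum from 6.14 to 10.3 CPM to 45.5 to 47.3 CPM. Called higher there were 6 of 6 primitive endoderm, 3 of 3 tested neural, 1 of 3 mesoderm, 3 of 6 tested trophoblast and 1 of 3 tested fibroblast markers. Of the 7 pluripotency markers 1 was called lower. In RING1B WT cells the primitive endoderm sum went from 3.62 to 4.49 CPM to 8.96 to 12.8 CPM and the neural sum from 5.92 to 7.06 CPM to 12.8 to 19.9 CPM. The part of these markers in the members' changes was not tested, and in such bulk samples a change in the number of expressing cells and a change in RNA per cell cannot be told apart.

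In Eed fl/fl cells Dll4, Hey2 and Heyl were detected before OHT. Of the 9 members tested 0 were called in edgeR, 0 in DESeq2 and 0 in limma, where 0.00795% of all genes rose in edgeR. That edgeR fit called 2 genes higher and 0 lower, and it did not call Eed itself, the deleted gene. The absence of calls therefore says little about the members. With the replicate number as a block 0 members were called as well, while 0.556% of all genes rose and 0.0834% fell, and Jag2 passed the FDR (0.70, adjusted p = 0.0193) but not the fold threshold. An unadjusted p under 0.05 was reached by 1 member, Jag2, at 11.6 and 18.9 CPM without and 24.5 and 24.2 CPM with OHT (log2 fold change 0.67, SE 0.288, adjusted p = 0.833). Dll4 had 1.97 and 4.78 CPM without and 2.49 and 9.08 CPM with OHT, Heyl 1.73 and 5.86 against 4.98 and 6.63 CPM, and Hey2 0.617 and 1.43 against 1.74 and 2.82 CPM. The −OHT replicates of Dll4, Heyl and Dll3 (2.71 and 8.25 CPM, against 2.99 and 6.996 CPM with OHT) differed from each other by more than the treatment means did. Dll1 (3.21 and 3.71 against 2.74 and 5.03 CPM), Jag1 (29.0 and 27.6 against 34.5 and 25.2 CPM), Hes1 (27.6 and 25.1 against 20.3 and 29.7 CPM) and Hey1 (3.70 and 4.54 against 2.49 and 3.07 CPM) changed by log2 values of 0.17, 0.08, −0.08 and −0.57, none past the test. Hes5 was not tested, with 0 and 2 reads without and 6 and 3 reads with OHT. The members' median was 0.17, beside 0.08 over all 25170 genes tested. The levels of Dll4, Heyl and Hey2 without OHT were above every −OHT library of the other lines, values that were scaled apart and come from other cells. Markers of other cell types were also higher in Eed fl/fl −OHT than in Parental −OHT libraries, with sums of 20.2 to 31.8 CPM for primitive endoderm, 17.7 to 18.1 CPM for neural progenitors, 5.31 to 9.56 CPM for mesoderm, 207 to 261 CPM for trophoblast and 17.03 to 30.004 CPM for fibroblasts. Single markers with wide gaps, chosen after their values were seen, were Gata3 at a mean of 21.2 against 0.492 CPM, Pdgfra at 12.7 against 0.879 CPM, Col1a2 at 8.50 against 0.143 CPM and Postn with 31 reads against 0. Genes with 10 or more reads over the 2 libraries numbered 30615 against 17254. The part of these differences in the members' levels was not tested.

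Peak lists show where each antibody was enriched in a library, with a score, the −log10 of the MACS2 p-value, that was 10 or more by the calling threshold. Each antibody and condition had 1 list except MTF2 and JARID2 at 72 h of OHT in WT- and I53S-expressing cells, with 2, so these counts have no replicate check and no test was made. Scores and lengths grow with sequencing depth, and no spike-in scaling enters a peak list, so they are given as values of these lists. Bases covered at a gene count only the part of a peak inside the gene widened by 2.5 kb, so longer peaks are cut. The 4 input lists had 0 members with a peak. Over the 70 ChIP lists, Dll4 had a peak in 63, Dll1 in 56, Hes5 in 53, Dll3 in 45, Hey2 and Heyl in 42 each, Hey1 in 37, Jag1 in 36, Jag2 in 21 and Hes1 in 7. Of the 4 nearly silent genes, Dll4 and Hes5 thus stood near the top with Dll1, and Hey2 and Heyl below the transcribed Dll3. Hes1, the most transcribed gene per kb, had the fewest. The widened window of Dll3 also reaches Selenov and that of Hes5 reaches Pank4.

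**Figure D3:**
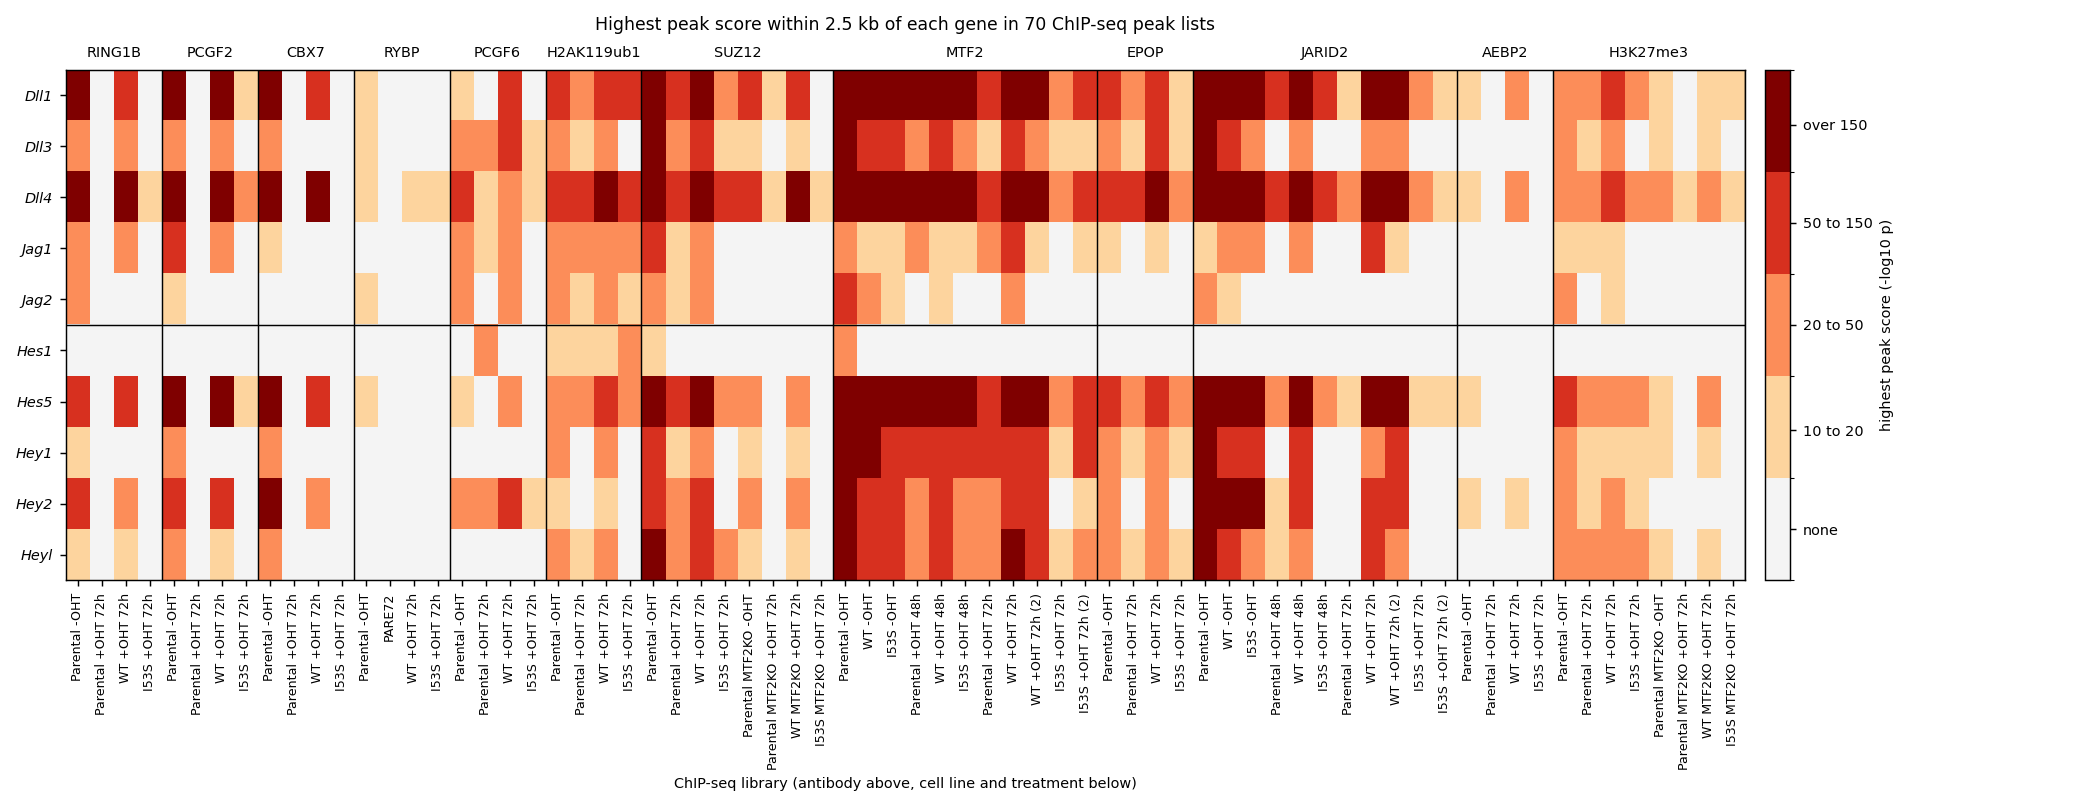
Highest peak score at each member (vertical axis) in each of the 70 ChIP-seq lists (horizontal axis, grouped by antibody), in bins of the −log10 of the MACS2 p-value that darken from 10 to over 150, with grey for no peak. Dll1, Dll4 and Hes5 had peaks in 56, 63 and 53 of the 70 lists and Hes1 in 7.

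RING1B occupied nearly all members before OHT. In Parental −OHT cells 9 of 10 members, all but Hes1, had a RING1B peak, against 10.4% of all gene names and 19.5% of the 21923 protein-coding ones. The members are protein-coding genes. The other peak shares given below are over all gene names, which for this list was the lower background. Scores were 191 at Dll4, 154 at Dll1, 123 at Hes5, 51.6 at Hey2, 37.4 at Dll3, 31.3 at Jag1, 24.5 at Jag2, 19.4 at Heyl and 16.4 at Hey1. In the Dll4, Hes5, Hey2 and Jag1 promoters printed above, this list covered all 250 bases. With OHT, 0 members kept a peak in Parental cells (1.14% of gene names), 7 had one in RING1B WT cells (8.03%) and 1, Dll4, in RING1B I53S cells (2.13%), which became 0 with a score of at least 20. The members without a RING1B peak in RING1B WT +OHT cells were Jag2, Hes1 and Hey1. At Dll4 the peaks covered 7676 bp in Parental −OHT, 6481 bp in RING1B WT +OHT and 856 bp with a score of 15.4 in RING1B I53S +OHT cells, and the latter left the promoter uncovered. The RING1B lists as a whole covered 9.37, 0.730, 6.42 and 1.42 Mb in Parental −OHT, Parental +OHT, RING1B WT +OHT and RING1B I53S +OHT cells.

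Canonical PRC1 subunits followed the same line. PCGF2, which defines canonical PRC1, had a peak at 9 members in Parental −OHT (10.3% of gene names), 0 in Parental +OHT (0.255%), 7 in RING1B WT +OHT (7.63%) and 3, Dll1, Dll4 and Hes5, in RING1B I53S +OHT cells (1.47%). CBX7, the subunit that reads H3K27me3, had peaks at 8 (10.4%), 0 (0.155%), 4 (5.48%) and 0 members (0.0867%) in that order, with scores of 765 at Dll4 and 482 at Hes5 in Parental −OHT and 179 and 79.4 in RING1B WT +OHT cells. RYBP, of variant PRC1, was found at 5 members in Parental −OHT (6.72%), 1 in RING1B WT +OHT (2.75%), 1 in RING1B I53S +OHT (1.84%) and 0 in the library titled PARE72 (0.143%), whose treatment the labels leave unclear. PCGF6, a variant PRC1 subunit that also binds DNA through partners of its own, had peaks at 7 members in Parental −OHT (16.1%), 5 in Parental +OHT (10.9%), 7 in RING1B WT +OHT (15.1%) and 3 in RING1B I53S +OHT cells (5.79%). In Parental +OHT cells 4 of the 7 kept one, Dll3, Dll4, Jag1 and Hey2, and Hes1, without a PCGF6 peak before, had one with a score of 20. The Dll4 peak there, 590 bp with a score of 10.9, lay 9016 bp past the nearest start site. The highest PCGF6 peak at Dll4 lay 8924 bp past it in Parental −OHT and 9015 bp in RING1B I53S +OHT cells, and none covered a start. With a score of at least 20, the 3 members with PCGF2 in RING1B I53S +OHT cells became 1, those with PCGF6 became 3 in Parental +OHT and 0 in RING1B I53S +OHT cells, and RYBP was at 0 members in all its lists.

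H2AK119ub1 peaks were called at 10 of 10 members in Parental −OHT (14.5% of gene names) and RING1B WT +OHT cells (17.4%), at 8 in Parental +OHT (11.6%) and at 6 in RING1B I53S +OHT cells (6.62%). With a score of at least 20 the 8 became 4, Dll1, Dll4, Jag1 and Hes5. At that score RING1B I53S +OHT cells kept these and Hes1 and lost Jag2. Hes1 and Hey2 dropped out in Parental −OHT and RING1B WT +OHT cells. The paper reports, from spike-in scaled ChIP-seq signal, that RING1B I53S cells with OHT lost H2AK119ub1 completely at PRC1 targets. Its western blots showed a global loss in both lines. Peak calls carry no such scaling and do not measure the amount of the mark that was left. Hey1 and Hey2 had no peak in either line without active RING1B, and Dll3 and Heyl had none in RING1B I53S +OHT cells either. Bases covered at Dll4 were 13319 in Parental −OHT, 4396 in Parental +OHT, 14097 in RING1B WT +OHT and 3646 in RING1B I53S +OHT cells. The full length of the highest-scoring peak at Dll4 was 16021, 6166, 24732 and 6541 bp in that order. Over all members the bases covered summed to 47825, 25687, 61511 and 17129 bp, where the whole lists covered 23.3, 7.95, 33.8 and 4.38 Mb. In Parental cells the covered length was shorter with OHT at 8 members and longer at the other 2, going from 1983 to 3911 bp at Jag1 and from 1557 to 2890 bp at Hes1. Scores did not follow the covered length at each gene, as Dll1 had 52.3 in Parental −OHT and 102 in RING1B I53S +OHT cells. At Hes1, which lacked RING1B peaks, H2AK119ub1 peaks of 1446 to 3778 bp were called in all 4 lists. The printed Hes5 promoter was covered over 250 bases in Parental −OHT, Parental +OHT and RING1B I53S +OHT and over 0 bases in RING1B WT +OHT cells, and the Hey2 promoter over 0 bases in each of the 4 lists. The RING1B WT +OHT list did have 2 peaks at Hes5 outside those 250 bases, over 5289 bp with a highest score of 69.6. Peaks at Hes5 covered 5132 bp (score 48.1) in Parental −OHT, 3638 bp (40.8) in Parental +OHT and 3202 bp (36.8) in RING1B I53S +OHT cells.

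**Figure D4:**
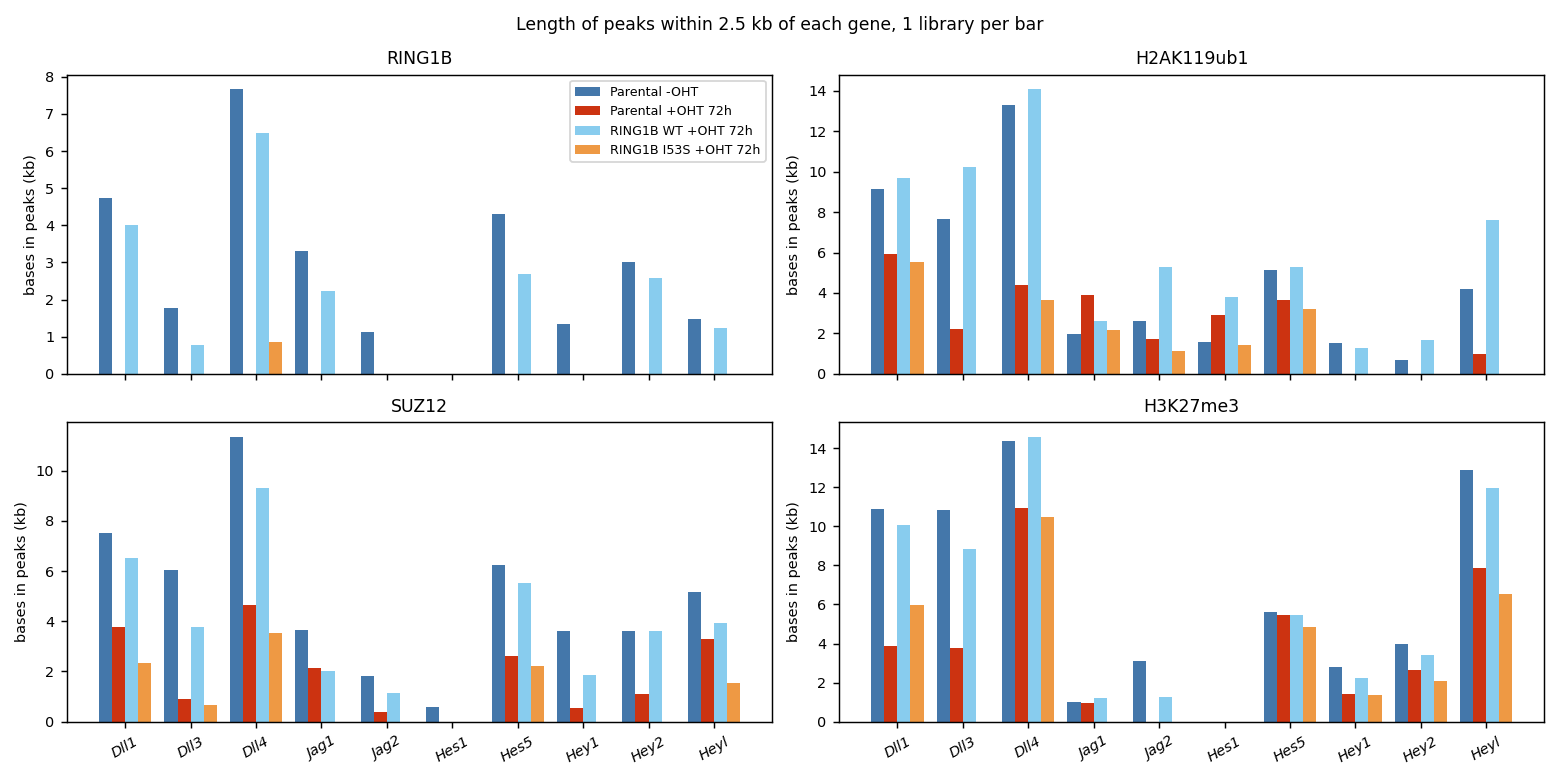
Bases in peaks (kb) at each member for RING1B, H2AK119ub1, SUZ12 and H3K27me3, with 1 bar per library for Parental −OHT, Parental +OHT, RING1B WT +OHT and RING1B I53S +OHT cells. RING1B bars with OHT outside RING1B WT cells are limited to 856 bp at Dll4, and H3K27me3 bars are present for 8 members in Parental +OHT and 6 in RING1B I53S +OHT cells. Covered bases do not measure the amount of a mark.

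The PRC2 core subunit SUZ12 had peaks at 10 members in Parental −OHT (17.1%), 9 in Parental +OHT (12.1%), 9 in RING1B WT +OHT (14%) and 5 in RING1B I53S +OHT cells (7.52%), the last being Dll1, Dll3, Dll4, Hes5 and Heyl. At Dll4 the score was 551 in Parental −OHT, 54.8 in Parental +OHT, 305 in RING1B WT +OHT and 51.3 in RING1B I53S +OHT cells, and at Hes5 490, 118, 324 and 42.4. Members together were covered over 49578, 19408, 37725 and 10259 bp. H3K27me3 was called at 9 members, all but Hes1, in Parental −OHT (17.9%) and RING1B WT +OHT cells (17.9%), 8 in Parental +OHT (14.5%) and 6 in RING1B I53S +OHT cells (14.4%). With a score of at least 20 the 8 became 4, Dll1, Dll4, Hes5 and Heyl, and RING1B I53S +OHT cells kept the same 4. At that score Jag1 dropped out in Parental −OHT and Jag1, Jag2 and Hey1 in RING1B WT +OHT cells. Inside the widened gene it covered 14361 bp at Dll4 in Parental −OHT, 10947 bp in Parental +OHT and 10459 bp in RING1B I53S +OHT cells. At Hes5 it covered 5635, 5456 and 4860 bp there. The full peak at Hes5 was 7286 bp in Parental −OHT, 5456 bp in Parental +OHT, 9477 bp in RING1B WT +OHT and 4860 bp in RING1B I53S +OHT cells. At the Hes5 promoter H3K27me3 and SUZ12 peaks covered all 250 bases in each of the 4 conditions, while at Dll4 the H3K27me3 peaks covered 250, 80 and 0 bases in Parental −OHT, Parental +OHT and RING1B I53S +OHT cells. From spike-in scaled signal, the paper reports that H3K27me3 was reduced at RING1B targets without H2AK119ub1. Peak calls and covered bases do not measure the amount of the mark that was left.

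Counts for the accessory PRC2 subunits depended on the peak score. MTF2, of PRC2.1, was at 10 members in Parental −OHT (31%), 9 in RING1B WT −OHT (22%) and 9 in RING1B I53S −OHT cells (19.7%). After 48 h of OHT it was at 8 members in Parental (16.8%), 9 in RING1B WT (18.3%) and 8 in RING1B I53S cells (17.3%). After 72 h it was at 8 in Parental (14.7%), 9 and 8 in the 2 RING1B WT lists (16.4% and 15%) and 6 and 8 in the 2 RING1B I53S lists (6.67% and 14.7%), which became 3 and 5 with a score of at least 20. The 2 RING1B I53S lists stood on either side of Parental cells at Dll4, with scores of 28.1 and 98.9, beside 550 and 438 in the 2 RING1B WT lists and 72.2 in Parental cells.

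JARID2, of PRC2.2, was at 9 members in Parental −OHT (19.9%), 9 in RING1B WT −OHT (13%) and 8 in RING1B I53S −OHT cells (12%). At 48 h it was at 5 in Parental (6.34%), 8 in RING1B WT (11%) and 3 in RING1B I53S cells (2.37%). At 72 h it was at 3 in Parental (3.02%), 8 in each RING1B WT list (11.1% and 11%) and 3 in each RING1B I53S list (2.39% and 0.945%). The 3 members were Dll1, Dll4 and Hes5 in each case. With a score of at least 20 the counts in Parental cells became 3 at 48 h and 1 at 72 h, and the second 72 h list of RING1B I53S cells had 0. Scores at Dll4 were 2139 in Parental −OHT, 1025 in RING1B WT −OHT and 878 in RING1B I53S −OHT cells, so the −OHT lists themselves differed. In Parental cells the scores were 107 and 28.5 at 48 and 72 h of OHT. RING1B WT cells had 689 at 48 h and 649 in both 72 h lists, and RING1B I53S cells 117 at 48 h and 44.1 and 16.9 at 72 h. AEBP2, also of PRC2.2, was at 4 members in Parental −OHT (2.61%), 0 in Parental +OHT (0.0307%), 3 in RING1B WT +OHT (2.82%) and 0 in RING1B I53S +OHT cells (0.0723%), and the 4 became 0 with a score of at least 20. EPOP, of PRC2.1, was at 8 (14.3%), 6 (6.02%), 8 (14.3%) and 6 members (6.56%) in that order, and the 6 were Dll1, Dll3, Dll4, Hes5, Hey1 and Heyl in both Parental +OHT and RING1B I53S +OHT cells, where 3 and 2 were left with a score of at least 20.

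In cells without MTF2 fewer members carried PRC2 peaks. SUZ12 was at 7 members in Parental MTF2 KO −OHT (6.79%), 2, Dll1 and Dll4, in Parental MTF2 KO +OHT (3.03%), 7 in RING1B WT MTF2 KO +OHT (7.61%) and 1, Dll4, in RING1B I53S MTF2 KO +OHT cells (1.26%). H3K27me3 was at 6 (7.77%), 1 (0.533%), 6 (4.53%) and 2 members (2.41%) in that order. With a score of at least 20 these became 4, 0, 4 and 0 for SUZ12 and 1, 0, 2 and 0 for H3K27me3. At Dll4 the H3K27me3 peaks covered 12412, 1290, 9693 and 2742 bp and the SUZ12 scores were 149, 16.4, 183 and 10.99. Jag1, Jag2 and Hes1 had neither SUZ12 nor H3K27me3 peaks in the 8 MTF2 KO lists. The RNA of MTF2 KO cells was not analysed here.

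**Figure D5:**
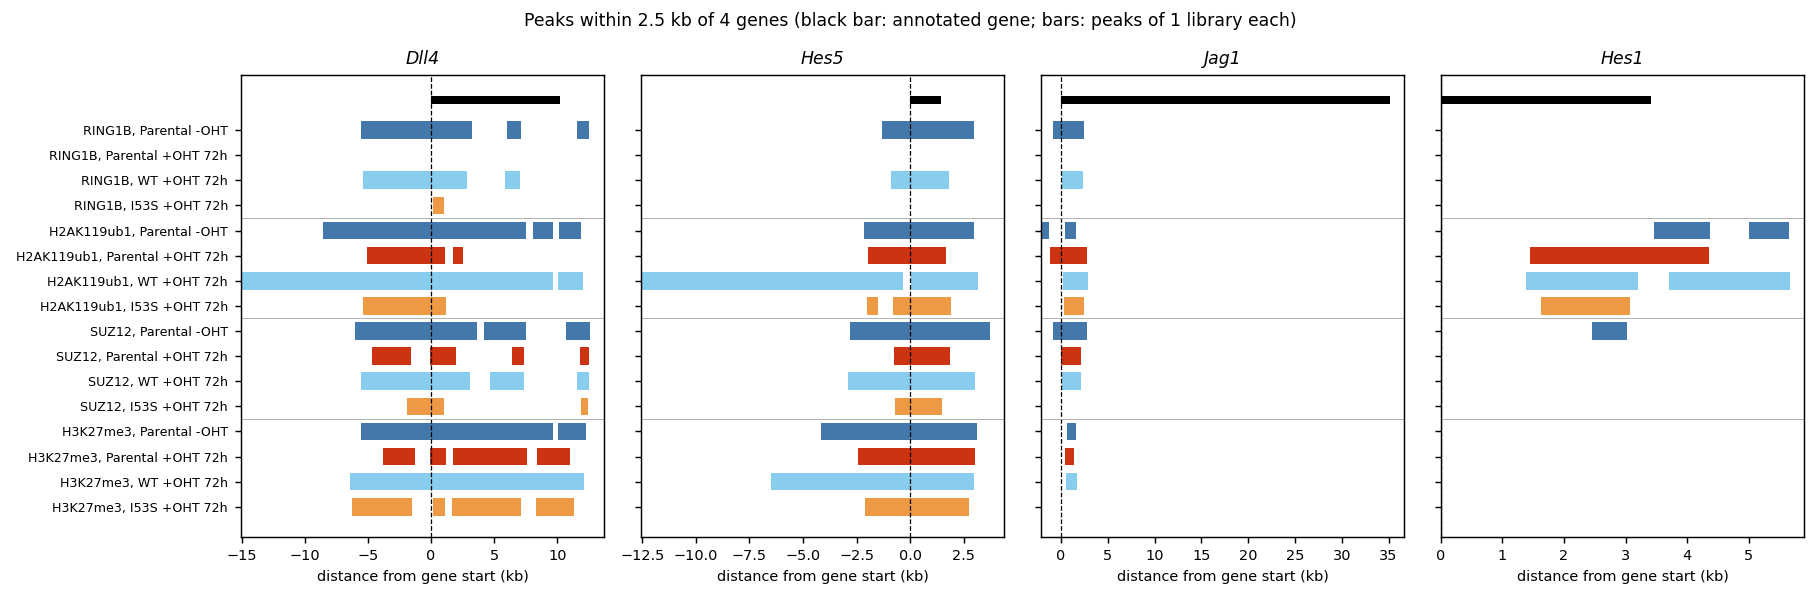
Extent of RING1B, H2AK119ub1, SUZ12 and H3K27me3 peaks at Dll4, Hes5, Jag1 and Hes1 by distance from the annotated gene start in kb, with 1 line of bars per library and the gene as a black bar. Inside the widened gene, RING1B peaks at Dll4 covered 7676 bp in Parental −OHT and 856 bp in RING1B I53S +OHT cells. H3K27me3 peaks there covered 14361 and 10459 bp, values that do not measure the amount of the mark.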

How the data were processed

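RNA-seq of 16 libraries and ChIP-seq peak lists of 70 libraries and 4 inputs were analysed. Per the study's methods and the submitters' processing notes, the authors used STAR 2.7 and mm10 for uniquely mapped RNA reads, removed PCR duplicates and counted reads per gene name with featureCounts on GENCODE M21 exons, ignoring strand, and the raw counts they deposited were used. The peak score in the deposited lists is a −log10 p-value that MACS2 2.1.1 gave, run by the authors for each library after Bowtie 1.2.2 alignment and removal of duplicates, and the lowest deposited score was 10, the limit they set. The normalized tables and the authors' comparison tables, which hold log2 fold changes and p-values, were not used, and 0 columns of per-sample counts were left out.

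The tests used edgeR 4.0.16 in R 4.3.3 (TMM, filterByExpr with a minimum count of 10, quasi-likelihood test), in 1 fit of 12 libraries (18154 genes, biological coefficient of variation 0.181) and 1 of the 4 Eed fl/fl libraries (25170 genes, 0.251). Calls required a Benjamini-Hochberg FDR under 0.05 over all genes tested and a log2 fold change of 1.5 or more in either direction. With 2 libraries a group, this spread limits the precision. DESeq2 1.42.0, limma 3.58.1, RLE normalization, other filters, FDR alone, separate fits, a replicate block and each library left out were tried. The count tests were checked on simulated data. Folds against 0 reads used a floor of 3 reads over the group. Peaks were intersected in Python 3.11.15 (numpy 2.4.6, scipy 1.17.1, matplotlib 3.10.9) with at least 1 bp of overlap with the gene widened by 2500 bp, with a score of 20, an overlap of 500 bp and no flank among the alternatives. All 10 members were described. Of 42 other pathway genes, receptors, Rbpj and those called with OHT in Parental or RING1B I53S cells were named, Rbpj being chosen after its values were seen. The members and lists were chosen with earlier results of these data known.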

Additional observations from a re-analysis of the deposited data

Results flagged for a closer look

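For Dll4 the OHT effects in RING1B WT and in Parental cells differed in the test of the difference itself (adjusted p = 0.0237, edgeR quasi-likelihood with Benjamini-Hochberg adjustment over 18154 genes). It rests on 3 and 1 reads without and 0 and 0 with OHT in RING1B WT, and on 0 and 0 reads without and 21 and 23 with OHT in Parental cells. Dll4 had passed the filter on low counts only through +OHT libraries in which it was high, so the test draws on the values that let it in. The direction held in 2 of 2 +OHT libraries of each line, but the 4 reads of the RING1B WT −OHT libraries carry part of it and the fitted difference (log2 −11.6) is no measure of size. Without any of 7 of the 8 libraries the adjusted p was 0.0540 to 0.245, and DESeq2 gave no adjusted p for this gene.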

How the results depend on the processing

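Over all alternatives other than leaving out a library, the count of members called stayed within 1.5 times its value in 89 of 90 cases, and the exception was the difference of OHT effects between RING1B I53S and RING1B WT cells, with 1 (Dll4) in place of 0 when no filter on low counts was used. With 1 library left out the count ran from 3 to 5 in Parental, 3 to 6 in RING1B I53S, 0 to 0 in RING1B WT and 0 to 0 in Eed fl/fl cells for the OHT effect, from 1 to 4 for RING1B WT against Parental and 0 to 2 for RING1B I53S against RING1B WT cells with OHT, from 0 to 1 for the difference of OHT effects between RING1B WT and Parental cells, and was 0 in the other comparisons. DESeq2 lost Hey2 (adjusted p = 0.111) in RING1B I53S cells and Hes5 (0.0754) and Hey2 (0.0827) between RING1B WT and Parental cells with OHT, and gave no adjusted p for Dll4 between RING1B I53S and RING1B WT cells nor for its difference of effects. Without a filter Dll1 passed between RING1B I53S and RING1B WT cells (1.71, adjusted p = 0.00517). The sign turned for Hes1 in RING1B WT cells (−0.0005 with RLE, −0.017 without a filter) and Jag1 in Eed fl/fl cells (−0.015 with RLE, −0.047 in DESeq2), both close to 0. Signs also turned with 1 library left out, none of them for a called change: RING1B WT OHT effect Hes1 −0.20 to 0.23 and Dll1 −0.11 to 1.23, RING1B I53S against Parental with OHT Dll3 −0.21 to 0.23, Jag1 −0.38 to 0.25, Hes1 −0.092 to 0.52, Hes5 −1.63 to 0.16, Heyl −0.062 to 0.51 and Hey1 −0.49 to 0.089, RING1B WT against Parental with OHT Jag1 −0.12 to 0.50, and Eed fl/fl Dll1 −0.34 to 0.50, Dll3 −0.87 to 0.83, Dll4 −0.44 to 1.497, Jag1 −0.21 to 0.28, Hes1 −0.38 to 0.13 and Heyl −0.010 to 1.69. The cause was not tested. The replicate numbers are not said to pair libraries (correlations of same-numbered deviations −0.003 to 0.301 over the 12 libraries and 0.459 in Eed fl/fl cells). With the replicate number as a block Hes5 passed in RING1B I53S cells (log2 fold change 2.48, adjusted p = 0.0474), giving 7 members, and no other count of members changed.

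Over all genes, Eed fl/fl calls went from 2 higher and 0 lower to 140 and 21 with the replicate block, 17 and 11 in DESeq2, 4 and 2 with RLE or limma and 1 higher without a filter. RING1B WT calls went from 244 higher and 7 lower to 466 and 17 without a filter and 146 higher in separate fits. For the difference of effects, calls lower in RING1B WT than in Parental cells went from 200 to 400 without a filter, and calls higher in RING1B I53S than in RING1B WT cells from 38 to 165 without a filter, 79 in DESeq2, 63 with the block and 24 in separate fits.

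Peak counts depended on the score. With a score of at least 20, members with a peak became, in Parental −OHT cells, 0 for AEBP2 and 0 for RYBP, in Parental +OHT cells, 4 for H2AK119ub1, 4 for H3K27me3, 3 for PCGF6, 3 for EPOP, 3 for JARID2 at 48 h and 1 for JARID2 at 72 h, in RING1B WT +OHT cells 0 for RYBP, and in RING1B I53S +OHT cells 0 for RING1B, 1 for PCGF2, 0 for PCGF6, 0 for RYBP, 2 for EPOP, 3 and 5 in the 2 MTF2 lists and 0 in the second JARID2 list. In MTF2 KO cells they became 4 for SUZ12 and 1 for H3K27me3 in Parental −OHT, 0 and 0 in Parental +OHT, 4 and 2 in RING1B WT +OHT and 0 and 0 in RING1B I53S +OHT cells, where H3K27me3 was at 1 member with no flank. The other 344 peak counts stayed within 1.5 times.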
